A study of Mus musculus with 6 samples.

Results

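A set of 39 interferon-stimulated genes was followed in 3T3-L1 adipocytes with and without knockdown of RBMS1, out of 45706 genes in the count table. The members were listed by name, as sensors of foreign RNA or DNA, transcription factors and effectors that cells make in response to interferon. They were chosen by their read counts in these same 6 samples as well as by function, above all by those of knockdown sample 3, where most of the genes stood highest. The knockdown-control differences and the sample order given below for these 39 genes are therefore a description, without a test of the list. 3T3-L1 is a mouse embryonic fibroblast line that turns into fat-storing adipocytes under a hormone cocktail. All cells were transduced with a lentivirus and selected with puromycin. The scrambled control (genotype WT in the labels, n = 3) carried a non-targeting short hairpin RNA (shRNA), and RBMS1 knockdown cells (RBMS1KD, n = 3) carried an shRNA against Rbms1, an RNA-binding protein. Both groups were differentiated with IBMX, insulin, dexamethasone and rosiglitazone and collected on day 7. Whether the replicate cultures of a group came from separate transductions is not given in the sources used here, so the spread between them may be partly technical.

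Interferons are secreted proteins that warn neighboring cells of infection. Type I interferons bind the receptor chains IFNAR1 and IFNAR2, whose kinases JAK1 and TYK2 lead to assembly of the complex ISGF3. ISGF3 holds STAT2 and IRF9 among its subunits and binds the interferon-stimulated response element (ISRE) in promoters. Double-stranded RNA in the cytosol, detected by RIG-I (Ddx58) and MDA5 (Ifih1), leads to interferon production through the adaptor MAVS. Many of the induced genes encode the sensors and factors of the pathway itself, so the response can feed on its own products. Adipocytes and their fibroblast precursors carry the receptors and can mount this response.

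The values below are CPM, counts scaled to a library of 1000000, with library sizes of the tested genes adjusted by TMM factors, which correct for differences in composition between libraries. Sample values are always given in the order of replicates 1, 2 and 3. Total estimated counts were between 3142695 and 5985167 in the controls and between 6173305 and 11073098 in the knockdown samples, with the lowest total in control 2 and the highest in knockdown 3. At this depth a gene without a count in a sample could still be present at up to 0.220 CPM in knockdown 3 and 1.49 CPM in control 2, the level of 3 counts, counting error only. Genes derived from ribosomal RNA took 43.0% of the counts of control 2 and between 8.12% and 17.8% elsewhere. The targeted gene, Rbms1, stood at 113, 102 and 99.6 CPM in the controls and 49.2, 61.4 and 84.0 CPM in the knockdown samples, with no overlap. Its log2 fold change was -0.69 (SE 0.20), with an adjusted p of 0.185 from edgeR's quasi-likelihood test (Benjamini-Hochberg), above the threshold of 0.1. The paper checked the knockdown in protein, by immunoblot, which these RNA values do not measure. The knockdown sample with the highest Rbms1 was knockdown 3. Without it the log2 fold change of Rbms1 was -0.92 (adjusted p = 0.0708 by edgeR, 0.0708 to 0.572 over all alternatives). Over all 6 samples with library sizes alone, without TMM factors, the log2 fold change of Rbms1 was -0.31.

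The promoters of these genes are shown because the ISRE is the sequence through which ISGF3 acts. RefSeq promoter windows on GRCm38.p6, from 250 bases before to 50 bases after the start site, were at hand for 29 of the 39 members. The letters GAAANNGAAA were searched on both strands. They were found in the windows of 14 of the 29 members (48.3%), against 1079 of 27025 genes (3.99%) over the whole table. Genes can have several windows, and counted by window the shares were 45.5% of 33 and 3.44% of 32851. The letters TTCNNNGAA, the gamma-activated sequence of the type II interferon response, stood in 6 of the 29 members (20.7%) and in 9.55% of all genes. Such a match is a description of these letters and not a mapped binding site. The lines below hold 30 bases of the gene's own strand, 5′ to 3′, around matches that lie before the start site, with the matched letters in capitals.
Isg15, chr4:156200871-156200900, minus strand: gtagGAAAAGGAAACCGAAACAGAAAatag
Oas1a, chr5:120907523-120907552, minus strand: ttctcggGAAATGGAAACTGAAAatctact
Bst2, chr8:71537580-71537609, minus strand: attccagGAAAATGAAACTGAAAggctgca
Ifit1, chr19:34640784-34640813, plus strand: gTTTCACTTTCcagtctcagTTTCAGTTTC
Ifit3, chr19:34583397-34583426, plus strand: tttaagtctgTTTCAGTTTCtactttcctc
Ifit3b, chr19:34607793-34607822, plus strand: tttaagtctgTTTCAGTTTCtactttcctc
Gbp3, chr3:142559992-142560021, plus strand: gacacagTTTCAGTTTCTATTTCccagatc
Gbp7, chr3:142530273-142530302, plus strand: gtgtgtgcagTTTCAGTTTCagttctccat
Rsad2, chr12:26456553-26456582, minus strand: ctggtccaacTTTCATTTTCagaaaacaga
Stat2, chr10:128270266-128270295, plus strand: cgcaccctggTTTCAGTTTCctttccctag
In Isg15, 3 overlapping matches filled positions -78 to -57 relative to the start site. Oas1a, Bst2 and Gbp3 had 2 overlapping matches each, at positions -20 to -5, -130 to -115 and -45 to -30. Ifit1 had 2 that lay apart, within positions -104 to -76. The runs shown for Ifit3 (match at -122 to -113) and Ifit3b (-154 to -145) are the same in all 30 bases, and both genes had a further match upstream of it. Runs with TTTC in capitals hold the same motif read on the other strand. Matches in Ifih1, Ddx58 and Eif2ak2 lay after the start site, and Trim30a had a match in each of 2 windows, before the start site in one and after it in the other. No match in these letters was present in the windows of Irf7, Irf9, Herc6, Trim25, Dtx3l, Parp12, Ifit2, Cmpk2, Oasl1, Oasl2, Samd9l, Ifi44, Ifi35, Xaf1 and Lgals3bp. Windows for Dhx58, Zbp1, Usp18, Parp9, Parp14, Mx1, Mx2, Ifi27, Ifi27l2a and Rtp4 were not used here. All 39 genes lie on 14 chromosomes, several of them side by side. Ifit2, Ifit3, Ifit3b and Ifit1 follow each other on the plus strand at chr19:34550694-34650009 (GENCODE M21, GRCm38), while Rsad2 and Cmpk2 on chromosome 12 point away from each other. Dtx3l and Parp9 on chromosome 16 also point away from each other and overlap by 682 bases.

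The summed level of the 39 genes was 635, 642 and 697 CPM in the controls and 660.1, 746 and 1465 CPM in the knockdown samples. Knockdown 3 held more than double the sum of any control, knockdown 2 lay a little above the controls, and knockdown 1 lay within their range. Gene by gene, knockdown 3 was the highest of the 6 samples for 37 of the 39 members, against 18% of all 11440 tested genes. Since this sample was known to be high when the genes were listed, nothing is read from that count. The exceptions were Ifi27 and Ifi27l2a, which were highest in control 3. Knockdown 2 was second for 22 members. Knockdown 1 lay above each control for 18 members, knockdown 2 for 27 and knockdown 3 for 37, and over all tested genes these shares were 29%, 28.2% and 28.7%. On log2 CPM (prior count 2), the median member was 2.05 higher in knockdown 3 than the control mean, 0.59 higher in knockdown 2 and 0.18 higher in knockdown 1. The same medians over all tested genes were 0.002, 0.018 and 0.002.

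**Figure D1:**
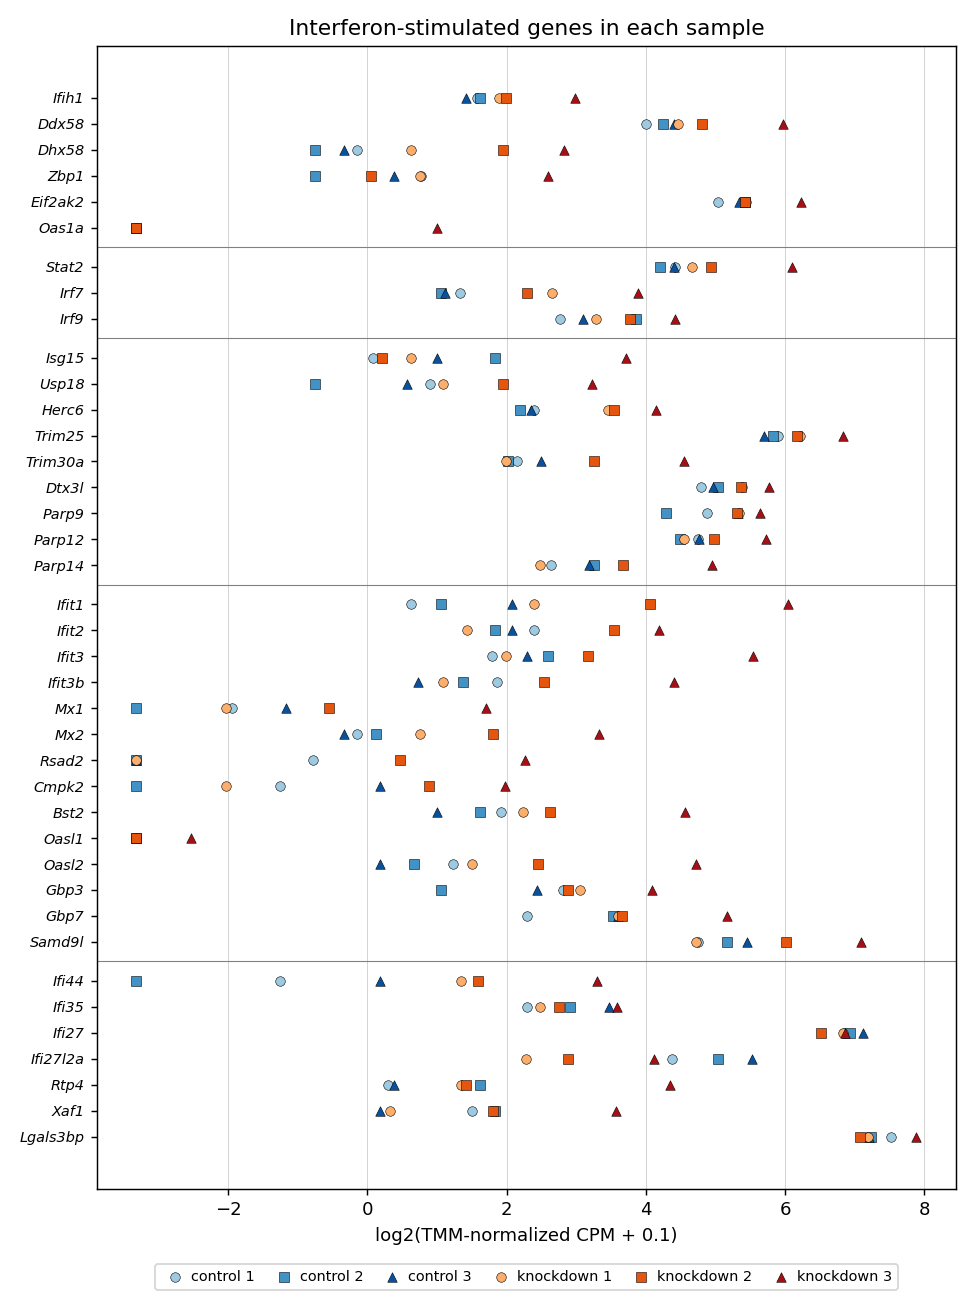
Level of each of the 39 genes in each of the 6 samples, as log2 of the TMM-normalized CPM plus 0.1 (x axis), with genes in rows parted by role from sensors at the top to other interferon-induced genes at the bottom. Knockdown 3 (dark red triangles) lies farthest to the right in 37 of the 39 rows, and Ifi27 and Ifi27l2a are the exceptions; the leftmost position stands for 0 counts.

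Among the 6 sensors, RIG-I (Ddx58) and PKR (Eif2ak2) were the best measured. Ddx58, the helicase that detects RNA with a 5′ triphosphate, stood at 15.9, 18.9 and 21.0 CPM in the controls and 21.9, 27.8 and 62.7 CPM in the knockdown samples. The groups did not overlap, and knockdown 3 was 3.38 times the control mean. Ifih1, which encodes MDA5 and detects long double-stranded RNA, stood at 2.89, 2.98 and 2.58 CPM in the controls and 3.59, 3.86 and 7.78 CPM in the knockdown samples. Here too the groups did not overlap and knockdown 3 was highest. Dhx58, whose product LGP2 modulates both helicases, had 5, 1 and 4 counts in the controls and 10, 32 and 95 in the knockdown samples. Its groups also did not overlap, but its counts were too low for the filter applied before testing. Eif2ak2, the kinase that stops translation when it meets double-stranded RNA, stood at 32.9, 42.7 and 40.4 CPM in the controls and 43.4, 42.9 and 74.7 CPM in the knockdown samples. Knockdown 1 and 2 lay just above the highest control here, and only knockdown 3 stood apart. Zbp1, a sensor of left-handed nucleic acid helices, stood at 1.60, 0.496 and 1.20 CPM in the controls and 1.58, 0.935 and 5.95 CPM in the knockdown samples, where knockdown 1 and 2 lay among the controls. Oas1a, which makes the messenger that activates RNase L, had no count in 5 samples and 26 in knockdown 3. The sums over the 6 sensors were 54.0, 65.5 and 65.9 CPM in the controls and 71.9, 79.3 and 160.0 CPM in the knockdown samples.

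The 3 transcription factors of the list are the DNA-binding side of the response. Stat2, the subunit of ISGF3 that activates transcription, stood at 21.3, 18.4 and 21.2 CPM in the controls and 25.3, 30.4 and 68.2 CPM in the knockdown samples. All knockdown samples lay above the controls, by little in knockdown 1 and 2, and knockdown 3 was 3.36 times the control mean. Irf7, which drives interferon genes and is itself induced by interferon, stood at 2.40, 1.99 and 2.06 CPM in the controls and 6.18, 4.79 and 14.8 CPM in the knockdown samples. All knockdown samples were well above the controls, and Irf7 had the largest fitted log2 fold change of the 3 factors, 1.98 (SE 0.48). Irf9, the DNA-binding subunit of ISGF3, stood at 6.73, 14.4 and 8.43 CPM in the controls and 9.63, 13.6 and 21.4 CPM in the knockdown samples. Control 2 lay above knockdown 1 and 2, so the groups overlapped.

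The 9 genes of the ISG15, ubiquitin and ADP-ribose systems modify proteins in the response. Isg15, a ubiquitin-like protein that is joined to other proteins, stood at 0.962, 3.47 and 1.89 CPM in the controls and 1.44, 1.05 and 13.1 CPM in the knockdown samples. Knockdown 1 and 2 lay within the range of the controls, so the higher mean of the knockdown group came from knockdown 3 alone. Usp18, the protease that removes ISG15 and also dampens receptor signaling, stood at 1.76, 0.496 and 1.38 CPM in the controls and 2.01, 3.74 and 9.25 CPM in the knockdown samples, with no overlap. Herc6, the ligase that attaches ISG15 in mice (chr6:57581000-57664632, GRCm38), stood at 4.86 ± 0.349 CPM (SD, n = 3) in scrambled control and 13.3 ± 3.65 CPM (SD, n = 3) in RBMS1 knockdown cells. Its 3 knockdown values of 10.9, 11.6 and 17.5 CPM all lay above control values of 5.13, 4.47 and 4.99 CPM. Its difference was spread over the knockdown samples, since knockdown 3 was only 1.61 times knockdown 1, whereas that ratio was 9.09 for Isg15. Trim25, the ubiquitin ligase that activates RIG-I, stood at 59.6, 56.6 and 52.0 CPM in the controls and 73.9, 72.2 and 114 CPM in the knockdown samples. Dtx3l, a ubiquitin ligase that acts together with Parp9, stood at 27.6, 32.8 and 31.0 CPM in the controls and 41.5, 41.0 and 54.5 CPM in the knockdown samples. Neither gene overlapped between the groups, and both had small differences, with knockdown 3 at 2.04 and 1.79 times the control mean. Parp9 itself stood at 29.3, 19.4 and 39.7 CPM in the controls and 40.4, 39.4 and 49.9 CPM in the knockdown samples, with control 3 level with knockdown 1 and 2. Parp12 and Parp14, a zinc finger and a macrodomain ADP-ribosyltransferase, were at 2.07 and 3.77 times the control mean in knockdown 3, and Trim30a, a regulator of inflammatory signaling, was at 5.04 times. In Parp12, Parp14 and Trim30a, knockdown 1 lay within or below the range of the controls.

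The 14 antiviral effectors held the largest differences. Ifit1, which binds viral RNA that lacks a methylated cap, stood at 1.44, 1.99 and 4.13 CPM in the controls and 5.18, 16.6 and 65.8 CPM in the knockdown samples. Each knockdown sample was above each control, and knockdown 3 was 26.1 times the control mean and 12.7 times knockdown 1. Ifit3, a partner of Ifit1, stood at 3.37, 5.96 and 4.82 CPM in the controls and 3.88, 8.88 and 46.6 CPM in the knockdown samples, and its near copy Ifit3b at 3.53, 2.48 and 1.55 CPM in the controls and 2.01, 5.73 and 21.1 CPM in the knockdown samples. Knockdown 1 lay within the control range for both. Reads of these copies were shared out by estimation, seen in counts that were not whole, so the split between Ifit3 and Ifit3b is uncertain. Ifit2 stood at 5.13, 3.47 and 4.13 CPM in the controls and 2.59, 11.6 and 18.2 CPM in the knockdown samples, with knockdown 1 the lowest of all 6 samples.

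Mx2, a dynamin-like GTPase that blocks viruses, stood at 0.801, 0.993 and 0.688 CPM in the controls and 1.58, 3.39 and 9.91 CPM in the knockdown samples, with no overlap. Its neighbor Mx1 had 1, 0 and 2 counts in the controls and 1, 5 and 43 in the knockdown samples. Per unit of library size this was a ratio of 7.89 between the pooled counts of the groups (95% counting interval 2.54 to 39.5, exact binomial). The interval covers counting error only, not the spread between samples, and 43 of the 49 knockdown counts came from knockdown 3. Rsad2 encodes viperin, which makes a chain-terminating nucleotide, and Cmpk2, beside it, encodes a nucleotide kinase. Rsad2 had 3, 0 and 0 counts in the controls and 0, 11 and 64 in the knockdown samples, a ratio of 12.1 (95% counting interval 3.98 to 59.8). This interval has the same limit, and 64 of the 75 knockdown counts came from knockdown 3. Cmpk2 had 2, 0 and 6 counts in the controls and 1, 15 and 52 in the knockdown samples. In both genes knockdown 1 was as low as the controls, and most counts came from knockdown 2 and 3.

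Bst2, or tetherin, which holds budding viruses at the cell surface, stood at 3.69, 2.98 and 1.89 CPM in the controls and 4.60, 6.08 and 23.6 CPM in the knockdown samples. The groups did not overlap, and knockdown 3 was 3.88 times the next sample. Bst2 is the only member on chromosome 8. Oasl2, a relative of the oligoadenylate synthetases, stood at 2.24, 1.49 and 1.03 CPM in the controls and 2.73, 5.38 and 26.2 CPM in the knockdown samples, with the same order of samples. Its neighbor Oasl1 had a single count in all 6 samples together, in knockdown 3, and no statement can be made on it. The guanylate-binding proteins Gbp3 and Gbp7, which attack the vacuoles of intracellular pathogens, stood at 3.58 and 3.79 times the control mean in knockdown 3. Their knockdown 1 and 2 values lay just above the highest control. Samd9l, an antiviral inhibitor of translation, stood at 26.8, 35.7 and 43.9 CPM in the controls and 26.2, 64.6 and 136 CPM in the knockdown samples, where knockdown 1 was below the controls. Over the 14 effectors the summed level was 59.6, 68.5 and 80.9 CPM in the controls and 69.3, 146 and 412 CPM in the knockdown samples, so knockdown 2 as well as knockdown 3 lay above the controls and knockdown 1 did not.

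The remaining 7 genes were the most mixed. Ifi44, of unsettled molecular function, had 2, 0 and 6 counts in the controls and 17, 25 and 132 in the knockdown samples. In CPM this was 0.321, 0 and 1.03 in the controls and 2.44, 2.92 and 9.69 in the knockdown samples, without overlap. Rtp4, a chaperone of membrane receptors, stood at 1.12, 2.98 and 1.20 CPM in the controls and 2.44, 2.57 and 20.3 CPM in the knockdown samples, with control 2 above knockdown 1 and 2. Xaf1, which promotes cell death, was at 4.87 times the control mean in knockdown 3, and its knockdown 1 and 2 values lay within the range of the controls. Lgals3bp, a secreted glycoprotein, stood at 184, 151 and 147 CPM in the controls and 145, 135 and 237 CPM in the knockdown samples. Knockdown 3 was the highest and knockdown 1 and 2 were the lowest samples. Ifi35 stood at 4.81, 7.44 and 11.0 CPM in the controls and 5.46, 6.66 and 11.9 CPM in the knockdown samples, and the groups overlapped.

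Ifi27 and Ifi27l2a, adjoining genes of small mitochondrial or membrane proteins on chromosome 12, did not share the direction of the rest. Ifi27 stood at 115, 123 and 139 CPM in the controls and 113, 91.5 and 116 CPM in the knockdown samples. The groups overlapped and knockdown 2 was lowest, and the log2 fold change of -0.23 turned to 0.15 with library sizes alone. Ifi27l2a stood at 20.7, 32.8 and 45.8 CPM in the controls and 4.74, 7.25 and 17.3 CPM in the knockdown samples. Each knockdown sample lay below each control, including knockdown 3, although knockdown 3 was still the highest of its group, at 3.64 times knockdown 1. The fitted log2 fold change of Ifi27l2a was -1.74 (SE 0.46) over all samples and -2.45 without knockdown 3.

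Levels can be set side by side between genes only per length. Per kilobase of exon sequence, the median of the 39 genes was 1.12 CPM in the control mean and 5.64 CPM in knockdown 3. In the controls the highest levels per kilobase belonged to Ifi27 (85.5), Ifi27l2a (71.4) and Lgals3bp (56.5), whose fitted log2 fold changes were -0.23, -1.74 and 0.10. These also led in knockdown 3, followed there by Ifit3, Bst2, Samd9l and Ifit1 at 26.7, 26.1, 25.1 and 24.8 CPM per kilobase. In the control mean Samd9l stood at 6.53 and Ifit1 at 0.948 CPM per kilobase, so Samd9l was well above Ifit1 there and level with it in knockdown 3.

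**Figure D2:**
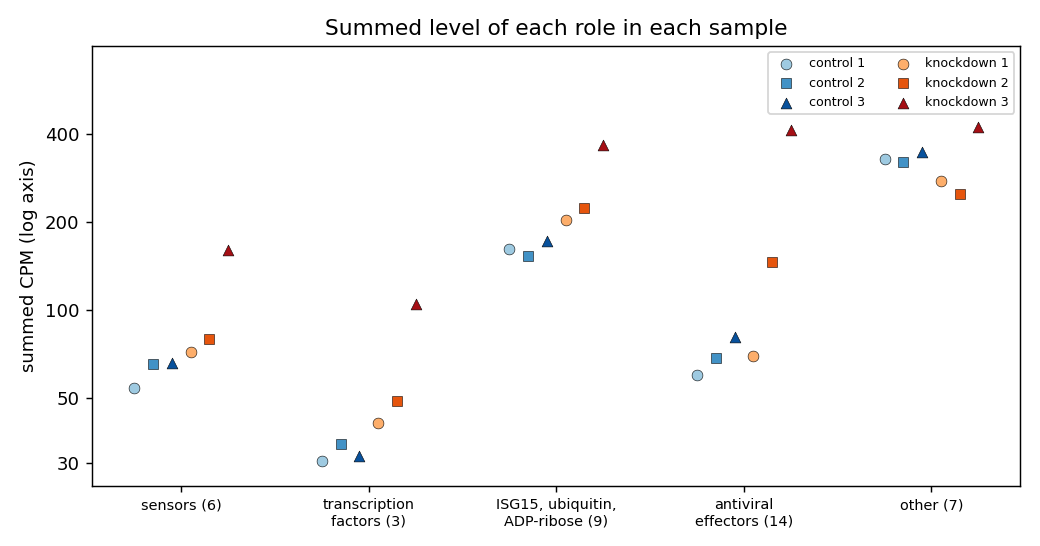
Summed CPM (log axis) of the genes of each role in each of the 6 samples, with the number of genes in parentheses. In every role knockdown 3 is highest, and the sum of the 7 other genes differs least, with knockdown 1 and 2 below the controls.

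By role, the median difference of knockdown 3 from the control mean was 2.01 on log2 CPM for the sensors, 1.74 for the transcription factors, 1.79 for the ISG15, ubiquitin and ADP-ribose genes, 2.98 for the effectors and 0.67 for the other genes. In knockdown 2 these medians were 0.29, 0.58, 0.47, 1.11 and -0.14. In knockdown 1 they were 0.28, 0.32, 0.40, -0.002 and -0.14. Effectors were the role with the widest range among knockdown samples, while of the 3 transcription factors Stat2 and Irf7 lay above the control mean in each of them. Irf9 in knockdown 1 was 0.04 above the control mean on log2 CPM and below it on CPM (9.63 against 9.85).

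In the fit of the whole table, 33 of the 39 members passed the filter on low counts. The 6 that did not, Dhx58, Oas1a, Mx1, Rsad2, Cmpk2 and Oasl1, reached the filter's level in too few samples. Members that passed only because they are high in 1 group had to differ, so the values below are no support for a difference of the list. Without the filter all 39 could be fitted, with a median of 1.38 and 37 above 0. For the 33 fitted genes the median log2 fold change of RBMS1 knockdown against scrambled control was 1.12, and 31 were above 0 (32 with library sizes alone), while the median over all 11440 tested genes was 0.004. Standard errors ran from 0.16 to 0.95 with a median of 0.48. Herc6 was the only member at an adjusted p of 0.1 or less in edgeR, that is 1 member among the 0.315% of all tested genes called higher in knockdown cells. Its log2 fold change was 1.45 (SE 0.28) with an adjusted p of 0.0695 by edgeR (0.0128 to 0.252 over the alternatives, above 0.1 with limma-voom, with the replicate block, without any 1 of the 3 controls and without knockdown 2 or 3). DESeq2 called 10 members, Dhx58, Mx2, Irf7, Ifi44, Oasl2, Herc6, Rtp4, Ifit1 and Bst2 as higher and Ifi27l2a as lower, where it called 3.46% of the genes tested by edgeR in either direction. Dhx58 was not tested by edgeR and so lies outside the genes of that share. The 3 knockdown samples lay above the 3 controls for 17 members, of which 16 were among the 33, and that was so for 8.96% of all tested genes. Nothing is read from these counts, since the genes were listed with this contrast known.

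Leaving out knockdown 3 reduced the median log2 fold change of the members from 1.12 to 0.43, with 28 of 33 still above 0. The largest values were then 2.25 for Ifi44, 2.08 for Ifit1, 1.64 for Mx2, 1.33 for Oasl2 and 1.33 for Irf7, and none of these was called. Isg15, Ifi35 and Lgals3bp turned below 0, at -0.59, -0.35 and -0.19. The only member called was Ifi27l2a, lower in knockdown cells (adjusted p = 0.0229 by edgeR, 0.00868 to 0.443 over the alternatives). Leaving out knockdown 1 instead gave a median of 1.53, and 20 members were called, 19 higher and Ifi27l2a lower. Calls grew over the whole table in that fit, from 140 to 696, with 2.3% of all tested genes called higher and 3.63% lower. Without knockdown 3 these shares were 0.301% and 0.696%.

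**Figure D3:**
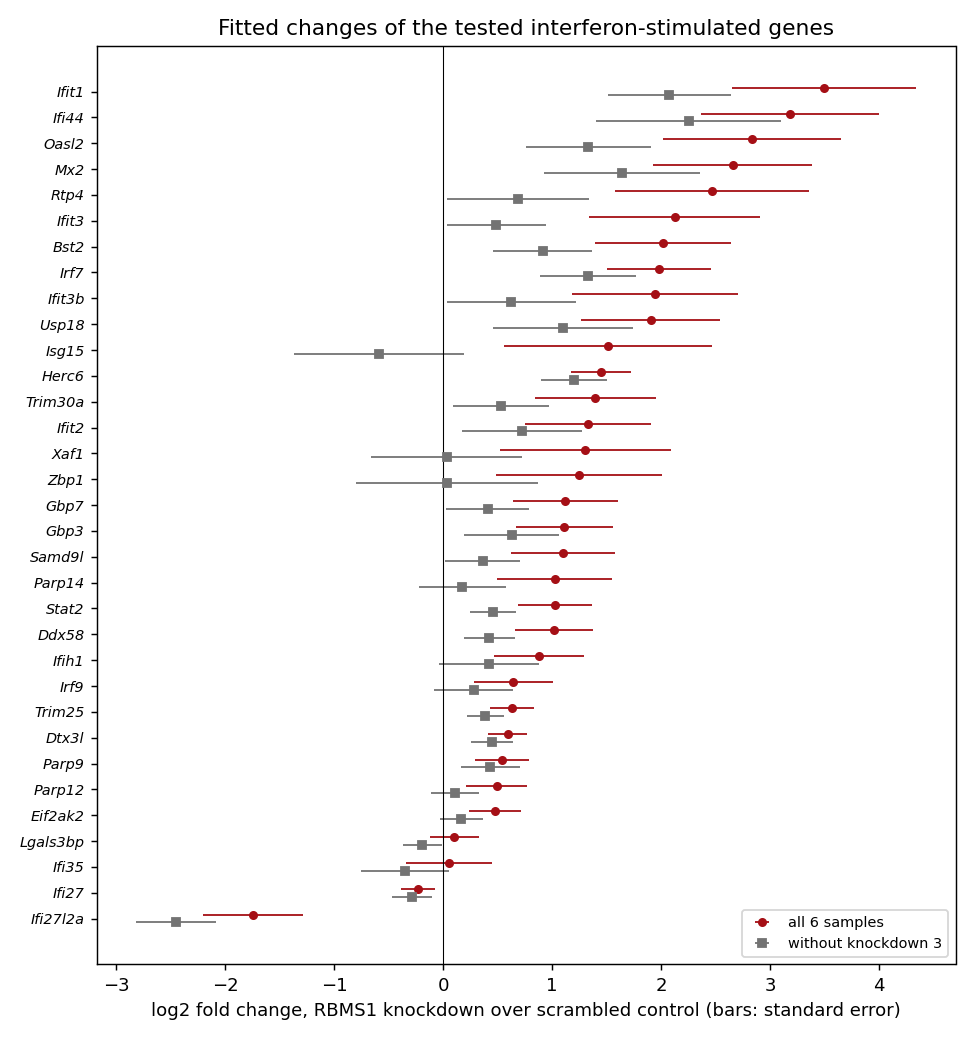
Fitted log2 fold change of RBMS1 knockdown over scrambled control (x axis, bars are standard errors) for the 33 tested genes, from all 6 samples (red circles) and without knockdown 3 (grey squares). Without knockdown 3 the median moves from 1.12 to 0.43, Isg15 moves from 1.51 to -0.59, and Herc6 moves from 1.45 to 1.20.

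Genes of the pathway outside the 39 were taken from lists that run from ligands to induced genes. They were written from general knowledge of the pathway, but with earlier results of these samples known, so their counts are a description too. Of 156 such genes in the table, 104 were tested. By edgeR 0 of them were called, where 1.22% of all tested genes were, and 16 (15.4%) had an unadjusted p under 0.05, against 12.4% of all tested genes. DESeq2, which called 3.46% of the genes tested by edgeR, called 4 of the 104, Zc3hav1, Ifi203, Irgm1 and Mndal, and of the genes not tested by edgeR it called Iigp1 and Tgtp2. Among the 20 interferon genes themselves, Ifne had a single count in knockdown 2 and the other 19, including Ifnb1 and Ifng, had 0 in all 6 samples. The 5 tested receptor chains were at a median of 0.16 in log2 fold change. Ifnar1 stood at 73.3, 68.5 and 86.4 CPM in the controls and 87.4, 69.2 and 82.8 CPM in the knockdown samples, and Ifnar2 at 41.4, 39.2 and 41.3 CPM in the controls and 57.2, 31.6 and 47.7 CPM in the knockdown samples. Both overlapped between the groups, as did Ifngr1, the ligand-binding chain of the type II receptor, with a log2 fold change of -0.09 (SE 0.18). Ifngr2, the other chain of that receptor, did not overlap and was highest in knockdown 3, at 23.9, 18.4 and 18.6 CPM in the controls and 24.7, 30.2 and 40.5 CPM in the knockdown samples (log2 fold change 0.65 (SE 0.22), adjusted p = 0.270 by edgeR). The 5 kinases and STAT proteins had a median of 0.20. Jak1 had a log2 fold change of 0.03 (SE 0.16) and Stat3 of -0.04 (SE 0.15).

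Interferon regulatory factors other than Irf7 and Irf9 were at -0.19 in the median log2 fold change, 5 of 7 being below 0. Irf1, which type II interferon induces, stood at 38.3, 46.7 and 40.8 CPM in the controls and 33.8, 31.4 and 33.6 CPM in the knockdown samples, lower in each knockdown sample (adjusted p = 0.412 by edgeR). The corepressor Irf2bp2 had a log2 fold change of -0.15 (SE 0.14), and its relative Irf2bpl of 0.61 (SE 0.23). The 15 sensing adaptors and kinases had a median of 0.20. Zc3hav1, the antiviral zinc finger protein ZAP, stood at 69.4, 70.5 and 65.7 CPM in the controls and 95.3, 102 and 111 CPM in the knockdown samples. Its groups were well apart and each knockdown sample was higher, with an adjusted p of 0.122 by edgeR. Mavs, the adaptor of RIG-I and MDA5, had a log2 fold change of -0.22 (SE 0.16) and the kinase Irak1 of -0.21 (SE 0.14). Of 9 inhibitors of the pathway, 7 were below 0 (median -0.15). Socs3, which blocks cytokine receptor kinases, stood at 111, 65.0 and 67.1 CPM in the controls and 6.76, 55.6 and 27.5 CPM in the knockdown samples, lower in each knockdown sample and lowest in knockdown 1 (adjusted p = 0.346 by edgeR), and Samhd1, a nucleotide hydrolase, had a log2 fold change of -0.23 (SE 0.20).

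Further interferon-induced genes, 47 of them tested, were at 0.31 in the median log2 fold change, 38 being above 0, and 28 were highest in knockdown 3 (59.6%, against 18% of all tested genes). Nothing is read from that share either, since the high values of knockdown 3 were known when the list was written. The most abundant of them did not differ alike. Rnf213, a large antimicrobial ubiquitin ligase, stood at 126, 96.8 and 84.0 CPM in the controls and 109, 124 and 277 CPM in the knockdown samples. Only knockdown 3 stood apart there. Tapbp, which loads peptides on MHC class I, and Ifitm2, a membrane protein that hinders virus entry, had log2 fold changes of -0.07 (SE 0.19) and -0.19 (SE 0.17). A further 23 of these genes fell under the filter on low counts. Of the 21 with any count, 13 were highest in knockdown 3. Oas2, Iigp1 and Tgtp2 were picked out after their values were seen. Oas2 had 0, 2 and 0 counts in the controls and 9, 52 and 155 in the knockdown samples. Iigp1, an immunity-related GTPase, had 2, 1 and 5 against 5, 41 and 195 counts, and Tgtp2, of the same family, had 0 in each control against 1, 12 and 91 counts. In each of these genes knockdown 3 was highest and knockdown 2 second. Tgtp2 has a near-identical copy, so its counts are uncertain. The 17 tested genes of the NF-kappaB response, which infection also turns on, had a median of -0.19, with 11 below 0. Ptges, Csf1 and Vcam1, the most abundant of them, had log2 fold changes of 0.13 (SE 0.19), 0.06 (SE 0.42) and 0.58 (SE 0.41).

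**Figure D4:**
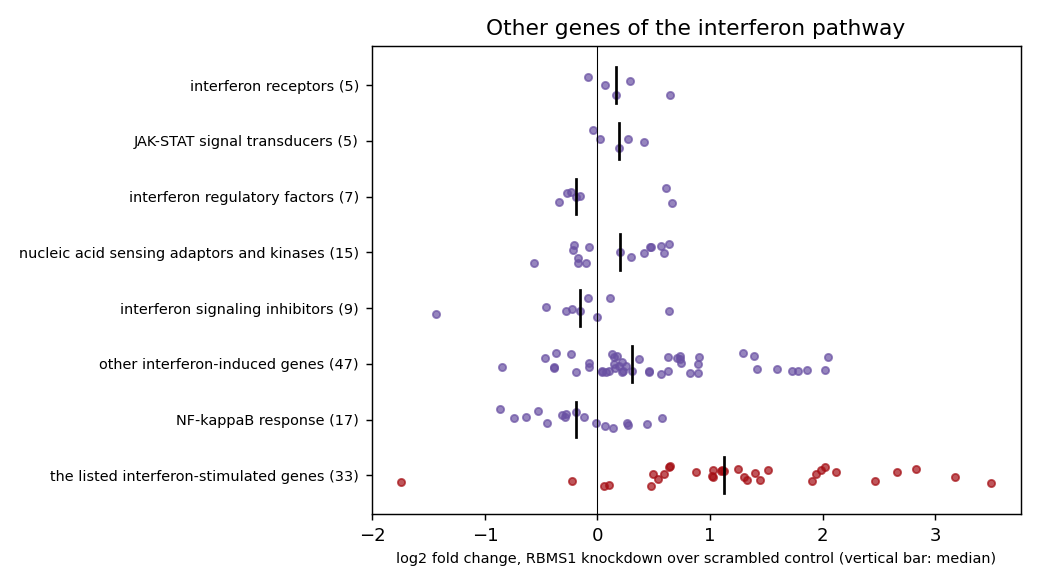
Fitted log2 fold change of RBMS1 knockdown over scrambled control for each tested gene of 7 lists of the pathway (purple, number of genes in parentheses) and for the 33 tested interferon-stimulated genes (red), with the median of each list as a vertical bar and random vertical spread of points. The bars of the lists lie between -0.19 and 0.31, and that of the 33 genes, which were listed with these values known, lies at 1.12.

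Genes with and without a match to the ISRE letters are set side by side as a description. In knockdown 3 the 14 members with a match were 2.25 above the control mean on the log2(CPM + 0.5) scale at the median, and the 15 members without a match 1.75. Among tested genes outside the list with a promoter window, the median was 0.02 for 292 genes with a match and 0.01 for 8105 genes without, and knockdown 3 was the highest sample for 18.8% and 18.4% of them.

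The tested genes outside the list whose pattern over the 6 samples was most like the mean profile of the 39 were sought among 4255 genes that spanned at least 1 on the log2 scale. By Pearson's correlation of log2 CPM over the 6 samples, the 10 closest were Ghr (r = 0.997), Map1a, Ttll7, Plac8, Irgm1, Chml, Dock8, Npc2, Ifi203 and Gdf11 (r = 0.956). These correlations rest on 6 libraries, with knockdown 3 far above the rest, and serve as a description. Ghr, the growth hormone receptor, stood at 484, 496 and 525 CPM in the controls and 580.2, 671 and 1264 CPM in the knockdown samples. Irgm1, an immunity-related GTPase, stood at 6.41, 4.47 and 5.16 CPM in the controls and 6.18, 11.5 and 31.3 CPM in the knockdown samples, and Ifi203, of the HIN-200 family of DNA-binding proteins, at 11.2, 11.4 and 9.98 CPM in the controls and 12.2, 29.6 and 65.8 CPM in the knockdown samples. Irgm1 and Ifi203 are interferon-induced genes of the lists above. Plac8 stood at 8.01, 6.45 and 7.57 CPM in the controls and 10.5, 16.4 and 41.4 CPM in the knockdown samples and Gdf11, a ligand of the TGF-beta family, at 3.21, 3.97 and 2.41 CPM in the controls and 2.73, 4.56 and 29.3 CPM in the knockdown samples. In all 5 genes knockdown 3 was highest and knockdown 2 second.

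Other values of the samples moved with the 39 genes in part. As given above, knockdown 3 had the most counts and, among knockdown samples, the highest Rbms1. The summed level of 14 adipocyte markers was 24810, 26100 and 27670 CPM in the controls and 22800, 12920 and 15260 CPM in the knockdown samples, lower in knockdown 2 and 3 than in all other samples. Lpl, the lipase that frees fatty acids from lipoproteins, was the largest part of it, at 12275, 11958 and 14512 CPM in the controls and 10210, 5350 and 5595 CPM in the knockdown samples. Of the 14 markers 13 had a log2 fold change below 0, and in 5 each knockdown sample lay below each control. Over all 11440 tested genes, 49.6% had a log2 fold change below 0. Each knockdown sample lay below each control for 1092 of them, and 104 were called lower by edgeR. Retn, the hormone resistin, was the only marker called, at 240.0, 311 and 204 CPM in the controls and 134, 54.7 and 48.7 CPM in the knockdown samples (log2 fold change -1.67 (SE 0.36), adjusted p = 0.0967 by edgeR). In knockdown 3 Adipoq and Fabp4 lay within the range of the controls, and Car3, the 1 marker with a log2 fold change above 0, was highest there. In these bulk samples fewer adipocytes and less RNA per adipocyte cannot be told apart. The paper found no difference in lipid content by oil red O staining, and PPARγ and adiponectin unaffected in RNA and protein. It reports C/EBPα and HSL as lower in knockdown cells, and ATGL as lower in protein alone. The 12 preadipocyte and fibroblast markers summed to 15460, 13320 and 13370 CPM in the controls and 8487, 17530 and 17600 CPM in the knockdown samples, with the highest sums in knockdown 2 and 3 and the lowest in knockdown 1. The markers did not move together. Col1a2 and Fn1, abundant matrix genes, were highest in knockdown 2 and 3, whereas Pdgfra, a receptor of the precursors, stood at 204, 244 and 258 CPM in the controls and 83.2, 143 and 159 CPM in the knockdown samples, and 8 of the 12 had a log2 fold change below 0. All 14 adipocyte and all 12 fibroblast markers passed the filter, so markers of the labelled cell type and of its precursors were present. Of 13 macrophage and immune cell markers, 6 had no count in any sample, including Ptprc, Adgre1, Tyrobp and Cd3e, and the sum was 3.05, 5.46 and 5.33 CPM in the controls and 5.03, 8.53 and 10.3 CPM in the knockdown samples. Most of that sum came from Cd68 and Cd14, which other cells also express. The part of depth, of adipocyte content and of the Rbms1 level in the pattern of the 39 genes was not tested.

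**Figure D5:**
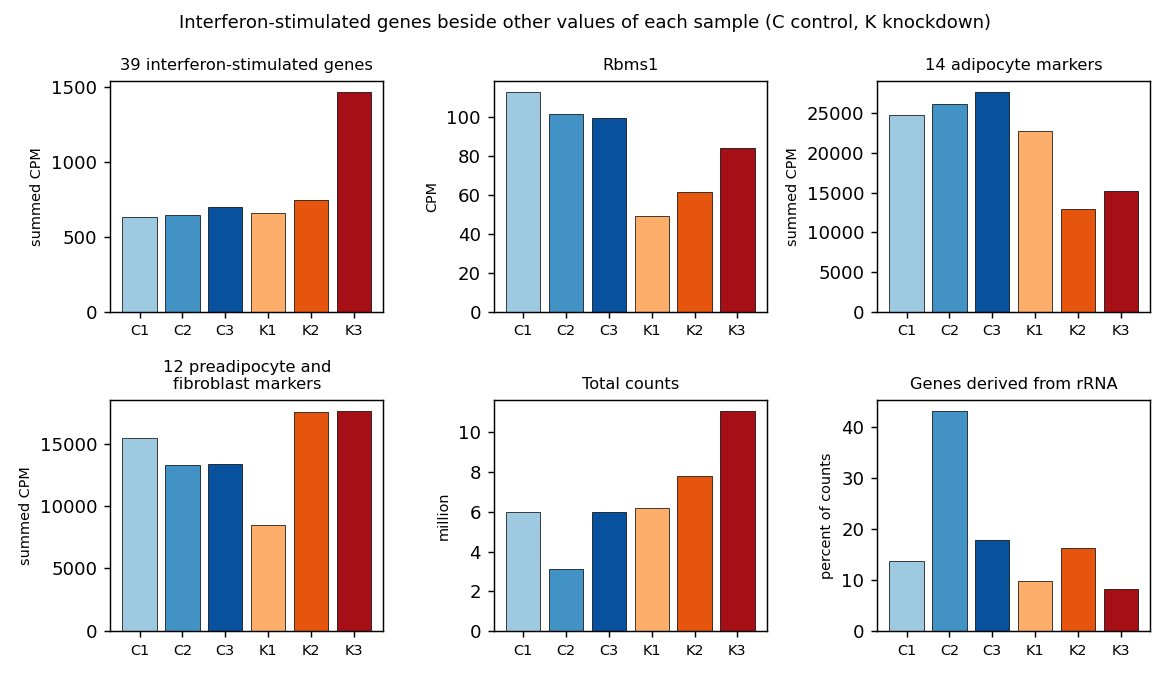
Bars from 0 for each of the 6 samples (C1 to C3 scrambled control, K1 to K3 RBMS1 knockdown) showing the summed CPM of the 39 genes, the CPM of Rbms1, the summed CPM of adipocyte and of preadipocyte and fibroblast markers, the total counts and the percent of counts in genes derived from ribosomal RNA. K3 is highest for the 39 genes (1465 CPM) and for total counts, while K2 and K3 both have the lowest adipocyte sums.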

How the data were processed

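RNA of 6 cultures of 3T3-L1 cells was analysed, 3 per group, in 1 table of the whole series. The authors depleted ribosomal RNA, prepared stranded libraries, used Trim Galore 0.6.7 for trimming and STAR 2.7.10a for alignment (GRCm38), and had Salmon 1.9.0 estimate how many reads belong to each gene. What they deposited are expected counts, not normalized. The annotation release is not given in the sources used here, and Salmon's sharing of reads between near-identical copies touches Ifit3, Ifit3b and Trim30a most, whose values are not whole in most samples.

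Counts were rounded (3.97% to 7.78% of values per sample were not whole, tolerance 1e-06) and went into edgeR 4.0.16 under R 4.3.3 (filterByExpr, TMM, glmQLFit with its newer estimates, glmQLFTest) on condition alone, with Benjamini-Hochberg adjustment over 11440 genes and a threshold of 0.1, that of the study's Results. Each p measures only the spread between these samples. With this many samples an exact permutation test goes no lower than p = 0.1, so none was used. Exon lengths and positions came from GENCODE M21 (GRCm38), promoters from RefSeq (GRCm38.p6), each matched by symbol or gene ID, with lengths for all 39 members.

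The 39 members and the other lists were chosen with earlier results of these data known. Named genes are the 39 members, Rbms1, called genes of the other pathway lists and the 3 most abundant tested genes of each, and the 10 genes closest in pattern. Oas2, Iigp1, Tgtp2, Mndal, Ifngr2 and all markers of cell types fall outside this rule and were named after their values were seen. A symbol with several rows in the table was taken at the row with the most counts. An abundant gene that the rule names is not reported here. Alternatives were DESeq2 1.42.0, limma-voom (limma 3.58.1), RLE size factors, library sizes alone or without the genes derived from ribosomal RNA, other filters, a replicate block and each sample left out, and, added after seeing the data, edgeR's earlier quasi-likelihood estimates.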

Additional observations from a re-analysis of the deposited data

How the results depend on the processing

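The median log2 fold change of the members stayed above 0 under all 15 alternatives, between 0.43 and 1.57. The highest value came with library sizes alone, a scaling that moved the median of all genes by 0.37, so that relative to all genes the members stood at 1.19. The number of genes called (140, or 1.22% of all tested genes) was 430 with DESeq2, 116 with limma-voom and 126 with library sizes alone. It was 268 without a filter on low counts and 39 with the replicate block, and ranged from 12 to 696 with each sample left out. Omitting scrambled control 1, 2 or 3 left 21, 12 or 32 calls, and omitting knockdown 1 or 2 gave 696 or 38. The number of members called (1) was 10 with DESeq2, 0 with limma-voom, 9 with library sizes alone, 8 without a filter, 2 with the replicate block, and 0 to 20 with each sample left out. Omitting any 1 control, or knockdown 2, left 0, and omitting knockdown 1 gave 20. In that last fit 2.3% of all tested genes were called higher and 3.63% lower. Nothing is read from the member counts, since the genes were listed with this contrast known. The number of other pathway genes called (0) was 6 with DESeq2, 4 with library sizes alone, 3 without a filter and 0 to 15 with each sample left out, with 15 reached when knockdown 1 was omitted. The log2 fold change of Rbms1 (-0.69) was -0.31 with library sizes alone (adjusted p = 0.572 by edgeR), ranged from -0.92 to -0.52 with each sample left out, and passed the threshold only when knockdown 3 was omitted (-0.918, adjusted p = 0.0708 by edgeR). The causes of these shifts were not tested. Over single members, 474 refitted values moved by less than the spread between replicates and 21 by more. Ifi27 turned from -0.23 to 0.15 with library sizes alone, and Ifi35 from 0.055 to -0.213 without scrambled control 1. Isg15, Ifi35 and Lgals3bp turned below 0 without knockdown 3, as given above, and no called member turned. Deviations from the group mean in same-numbered samples correlated at -0.144, 0.078 and -0.028 over tested genes for numbers 1, 2 and 3. Unlike numbers reached 0.206 (control 1 with knockdown 3) and -0.173 (control 2 with knockdown 3). With 3 samples per group these values cannot show whether the numbers pair the samples. With the block the 2 members called were Ifit1 and Ifi27l2a. Low counts limit Dhx58, Oas1a, Mx1, Rsad2, Cmpk2 and Oasl1.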
